A study of Mus musculus with 15 samples.

Results

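The genes described here are the 47 other DEAD-box and DEAH-box genes measured in a knockdown study of 4 DEAD-box RNA helicases in mouse embryonic stem cells. They were chosen by name, as every gene whose symbol is Ddx or Dhx followed by a number and at most 1 letter. The letter had to be a, b, x or l, so Ddx3y is not among them. Membership rests on the symbol in the files alone. Ddx26b, now named Ints6l, is included by its older symbol, and whether its protein is an RNA helicase was not tested. Ddx10, Ddx24, Ddx27 and Ddx54, the knockdown targets, and the RNA sensors Ddx58 and Dhx58 were left out, and a mean of at least 20 expected counts over the 15 libraries was required. All 47 genes met that minimum, out of 23845 genes in the files, and all 47 passed the filter on low counts. The lowest mean was 33.4 expected counts, for Ddx60, and no gene of this name pattern lay below the minimum.

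The cells were E14, an embryonic stem cell line, grown on gelatin. Each of the 5 groups was incubated with 400 ng of small interfering RNA (siRNA) and 4 µL of Lipofectamine 2000 for 16 h and was harvested at 48 h. The siRNA was directed at EGFP in the control group, EGFPKD, and at 1 helicase in each of the others, named Ddx10KD, Ddx24KD, Ddx27KD or Ddx54KD after the target. A group has 3 replicates, described as biological. Messenger RNA was enriched by oligo-dT capture and sequenced, and the series as a whole concerns proteins that interact with R-loops, which are RNA-DNA hybrids. The model is 1 cell line with a partial loss of each target, and all groups, the control included, were transfected.

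DEAD-box and DEAH-box proteins are named for amino acid motifs in their ATP-binding core, and they use ATP to open RNA duplexes or to strip proteins from RNA. Nucleolar members help to build the ribosomal subunits, several DEAH-box members drive the spliceosome from step to step, and others act in messenger RNA export, translation and decay. In embryonic stem cells, which divide fast and make many ribosomes, the family is best known for its nucleolar members.

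Libraries held 26836946 to 27708782 expected counts, and the 47 genes took 0.891% to 0.963% of them. The test covered 14335 genes. In its own knockdown each target was lower than in EGFPKD, with a log2 change of -2.43 (Ddx10), -1.70 (the Ddx24 gene), -2.14 (the Ddx27 gene) and -1.84 (the Ddx54 gene). Summed levels of 10 embryonic stem cell markers were 7852 to 8282 TPM (transcript abundance scaled to length and library total) in all 15 libraries. Summed over 10 fibroblast genes they were 18.95 to 26.96 TPM in EGFPKD and 12.01 to 18.14 TPM in the knockdowns, and over 10 germ layer genes 9.89 to 13.52 TPM. In each group 2 or 3 of the fibroblast genes were at 0 in all its libraries, and the part of these markers in the results was not tested. The sums do not show single markers. Nanog was at 72.3% ± 5.49 of its EGFPKD level in Ddx10KD, 80.4% ± 11.0 in Ddx24KD and 74.2% ± 2.75 in Ddx27KD (SD, n = 3), all called by edgeR (adjusted p 0.000215, 0.00517 and 0.000382), and at 87.6% ± 2.28 in Ddx54KD (0.0730). Zfp42 had log2 changes of -0.33, -0.33, -0.40 and -0.30, and the fibroblast marker Thy1 -0.73, -0.73, -0.76 and -0.48, each called in all 4. Thy1 made up most of the fibroblast sum, at 24.61, 16.88 and 19.27 TPM in EGFPKD and 9.62 to 16.06 in the knockdowns. No other fibroblast gene exceeded 1.35 TPM in any library, so the fibroblast sum mostly shows Thy1. The stem cell markers did not all move 1 way. Sox2 was at 480 to 514 TPM in EGFPKD and at 543 to 643 TPM in the knockdown libraries, with no overlap. The germ layer sum also hides moves in both directions. Pax6 was at 3.72 to 6.08 TPM in EGFPKD and at 1.96 to 3.83 TPM in the knockdown libraries. Gata6 was at 0.47 to 0.93 TPM in EGFPKD and at 0.73 to 3.09 TPM in the knockdown libraries, and both genes had overlap. Libraries with the same replicate number deviated together, so values with the replicate number as a block are given wherever they change a count by more than 1.5 times. In bulk RNA a smaller number of cells of one type and less RNA per cell cannot be told apart.

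On the TPM scale, which divides by transcript length and so allows levels of different genes to be compared, the 47 genes covered a wide range in EGFPKD. The median was 71.6 TPM, with 16 genes above 100 TPM, 25 from 10 to 100 and 6 below 10. Ddx5, a coregulator of transcription and of microRNA processing, had the highest level, 707 ± 18.3 TPM (SD, n = 3). It was followed by the mRNA export factor Ddx39b at 506 ± 20.4 TPM, Ddx3x, which helps translation of structured messages, at 431 ± 18.8, and Dhx9, which unwinds RNA and R-loops, at 364 ± 22.2. The lowest levels were those of the antiviral gene Ddx60 at 0.313 ± 0.0929 TPM, Ddx26b at 5.37 ± 0.391 and Ddx4, the germ line gene also called Vasa, at 6.41 ± 0.183. The median coefficient of variation among EGFPKD replicates was 4.27%, from 0.731% to 30.1%, the last for Ddx60. The summed level of all 47 genes was 5424 ± 135 TPM in EGFPKD and between 5469 and 5606 TPM on average in the knockdowns.

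**Figure D1:**
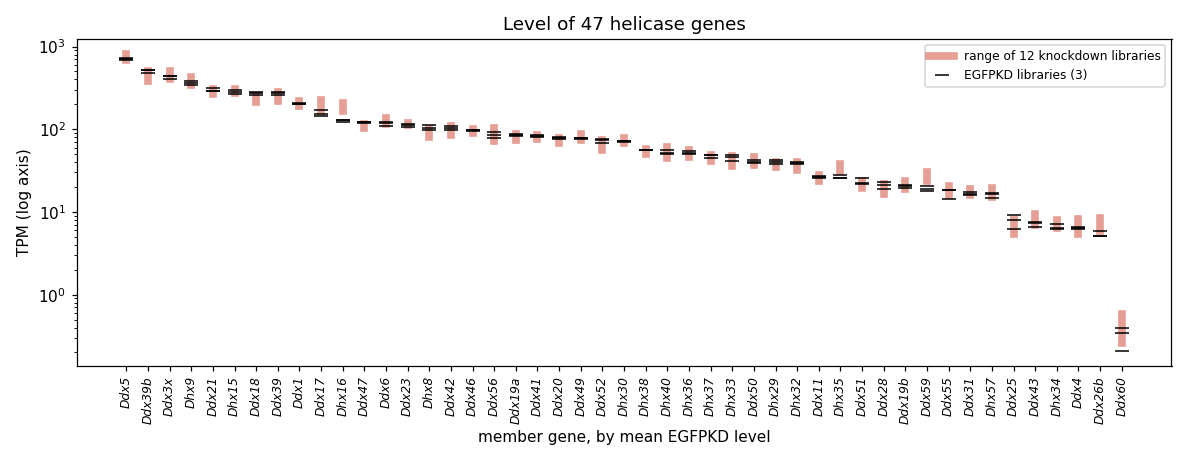
Levels of the 47 genes in TPM (log axis), ordered by the EGFPKD mean. Black marks are the 3 EGFPKD libraries and the red bar is the range of the 12 knockdown libraries. The bars of Dhx16, Dhx35 and Ddx59 lie above their black marks, while most bars overlap them.

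Of the 47 genes, 16 passed the test in at least 1 knockdown in the fit without a replicate block and 31 passed with it, and no gene was called in both directions in either fit. Here and in all later paragraphs, values are from the fit without the block unless the block is named. At an adjusted p under 0.05 (edgeR quasi-likelihood test, adjusted over 14335 genes), 10 of the 47 differed in Ddx10KD, where 30.96% of all genes tested were called. In Ddx24KD 10 of 47 were called against 28.1% of all genes, in Ddx27KD 10 against 33.4%, and in Ddx54KD 8 against 24.3%. By direction, 6 were higher and 4 lower in Ddx10KD (background 16.5% and 14.5%), 5 and 5 in Ddx24KD (15.03% and 13.1%), 6 and 4 in Ddx27KD (17.3% and 16.1%), and 4 and 4 in Ddx54KD (13.1% and 11.2%). The share of the 47 that was called, 21.3% in the first 3 comparisons and 17.0% in Ddx54KD, lay below the background each time in this fit. This did not hold in all comparisons with the block or in the authors' deposited tables, as given further on. The background of those deposited tables covers more genes and is not like the one used here. The 47 genes are well expressed, and among all genes with a mean of at least 200 counts the background of this fit was higher still, 35.2%, 32.01%, 37.9% and 28.3% (43.6% for the mean of the 4 knockdowns). Leaving out EGFPKD replicate 2 or 3 or Ddx24KD replicate 3 left 6 calls in Ddx24KD, and leaving out EGFPKD replicate 3 or Ddx54KD replicate 2 or 3 left 5 in Ddx54KD.

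The changes were also smaller than those over all genes tested, a background that was not matched for expression level. Of the 47, 45 had a mean of at least 200 counts, and change sizes were not computed for all genes with such a mean. The part of expression level in this difference was not tested. The median absolute log2 change of the 47 was 0.11 in Ddx10KD, 0.09 in Ddx24KD, 0.11 in Ddx27KD and 0.09 in Ddx54KD, against 0.19, 0.18, 0.20 and 0.17 over all genes tested. Their median log2 change with its sign was -0.01, -0.04, -0.03 and -0.05, beside 0.01, 0.00, 0.01 and 0.01 for all genes. An absolute log2 change above 0.5 was found in 1 of the 47 in Ddx10KD, in 0 in Ddx24KD, in 3 in Ddx27KD and in 1 in Ddx54KD, while 17.6%, 16.5%, 18.3% and 15.03% of all genes exceeded it. These were Dhx16 in Ddx10KD, Dhx16, Ddx59 and Ddx60 in Ddx27KD, and Ddx60 in Ddx54KD, of which Ddx60 was not called.

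**Figure D2:**
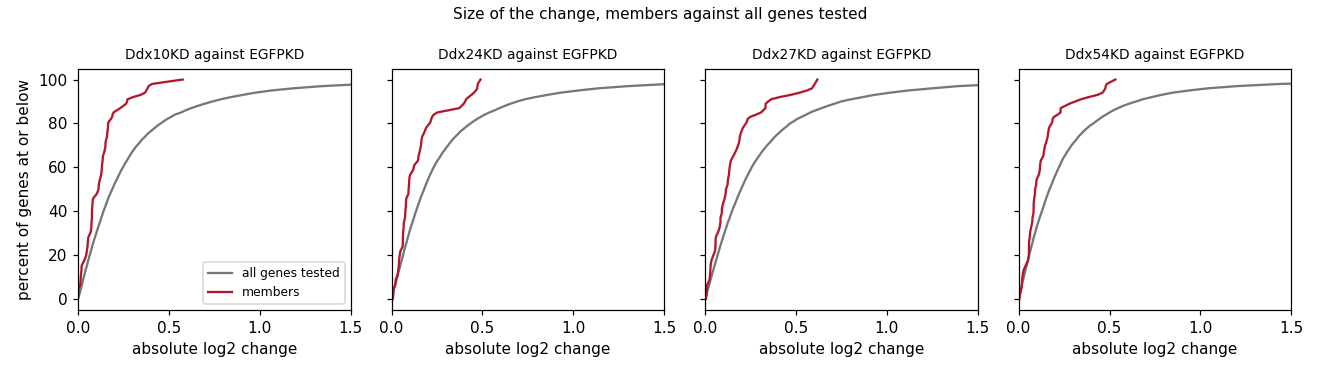
Cumulative share of genes (percent, y axis) at or below an absolute log2 change (x axis, cropped at 1.5) for the 47 genes (red) and all genes tested (grey), 1 panel a knockdown. The red curve lies above the grey one over most of the range, with medians of 0.11, 0.09, 0.11 and 0.09 against 0.19, 0.18, 0.20 and 0.17.

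Of the 47 genes, 31 were called in no knockdown and 16 (34.0%) in at least 1 without the block, against 43.9% of all genes tested. Dhx16, Dhx35, Ddx59 and Ddx17 were higher in all 4 knockdowns, which held for 9.32% of all genes, and Ddx18 was lower in all 4, as were 7.31% of all genes. Ddx26b was higher and Ddx47 lower in 3 knockdowns. Dhx8, Ddx20 and Dhx32 were lower in 2, and 6 genes were called in exactly 1. None of the 16 was called in both directions. The 4 comparisons share the EGFPKD libraries, so a call in several of them is not independent evidence. In 5 of the 47 genes all 12 knockdown libraries lay above all 3 EGFPKD libraries (Dhx16, Dhx35, Ddx59, Ddx17 and Ddx26b; background 12.2%), and in 3 all lay below (Ddx18, Ddx47 and Dhx8; background 11.2%).

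With the replicate number as a block more genes were called, among the 47 as among all genes. At least 1 knockdown then called 31 of the 47 (66.0%), against 61.3% of all genes tested, and 16 were called in none. The counts were 18 of 47 in Ddx10KD (7 higher, 11 lower; background 44.02%), 15 in Ddx24KD (6 and 9; 41.2%), 23 in Ddx27KD (10 and 13; 45.8%) and 18 in Ddx54KD (7 and 11; 38.9%). For the mean of the 4 knockdowns against EGFPKD, 14 of 47 were called without the block (6 higher, 8 lower; background 38.7%, of which 19.6% higher and 19.1% lower) and 24 with it (8 and 16; 51.04%). Without the block the count for the mean was 9, 9 and 7 when EGFPKD replicate 1, 2 or 3 was left out. Of all genes, the block called 22.8% higher and 21.3% lower in Ddx10KD, 21.3% and 19.9% in Ddx24KD, 23.3% and 22.6% in Ddx27KD, 20.04% and 18.8% in Ddx54KD, and 25.9% and 25.2% in the mean. The members' share with the block was 38.3%, 31.9%, 48.9% and 38.3% in the order above. It was lower than the background in Ddx10KD and Ddx24KD, next to it in Ddx54KD and a little higher in Ddx27KD. For the mean it was 51.1%, next to the background. Nothing about the members is read from these differences. The split between directions moved with the block, since lower calls of the 47 then outnumbered higher ones in all 5 comparisons.

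**Figure D3:**
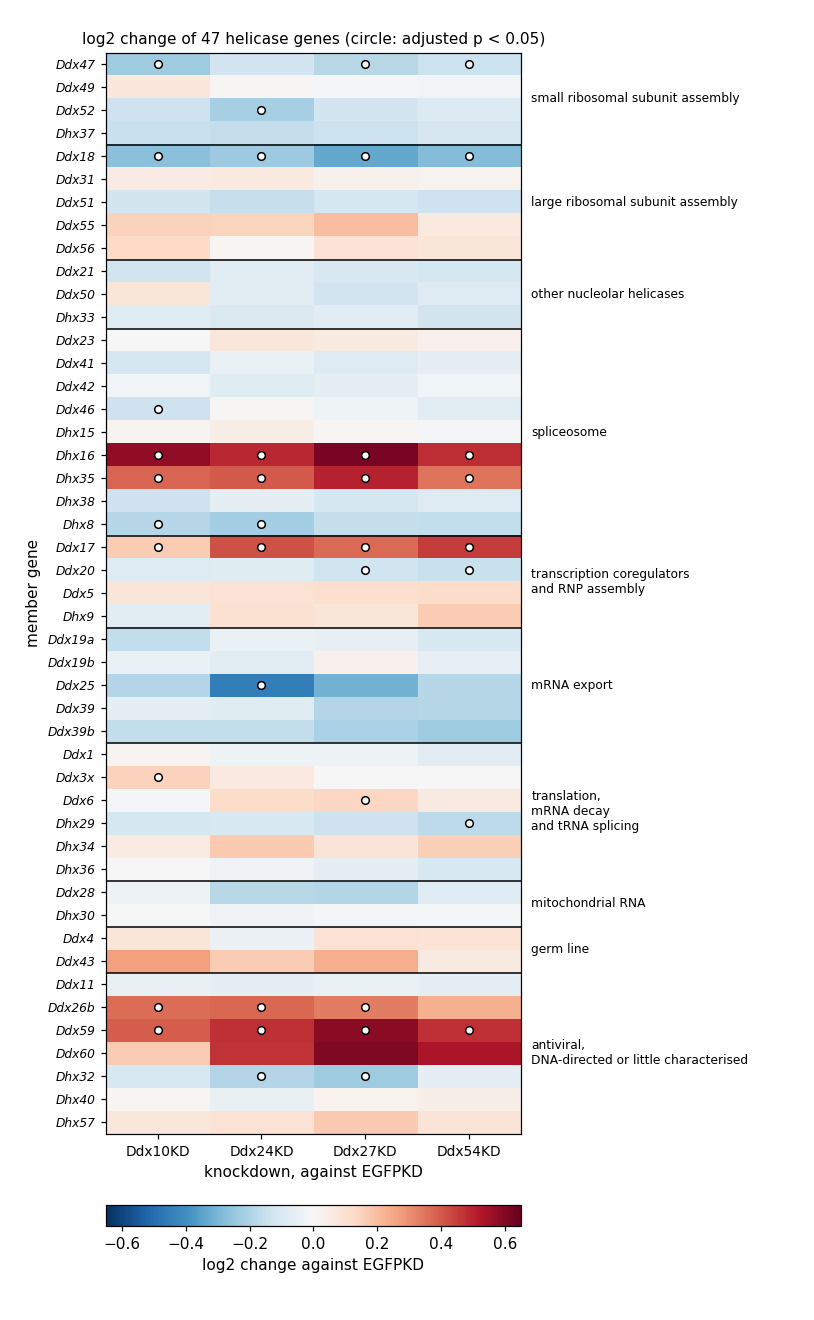
Fitted log2 change against EGFPKD (colour scale centred on 0) of each of the 47 genes (rows, by role) in the 4 knockdowns (columns). Circles mark an adjusted p under 0.05. Dhx16, Dhx35, Ddx17 and Ddx59 carry circles in red across all 4 columns and Ddx18 in blue, while the uncalled Ddx60 is red in 3 columns at a level near 1 CPM.

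For the 5 genes called in all 4 knockdowns, the 250 bases before the RefSeq start are printed to show the sequence beside their starts, 5′ to 3′ on the strand of the gene (RefSeq, GRCm38.p6). The windows are chr17:35879528-35879777 (plus strand) for Dhx16, chr2:158794557-158794806 (plus strand) for Dhx35, chr1:136415021-136415270 (plus strand) for Ddx59, chr15:79546742-79546991 (minus strand) for Ddx17 and chr1:121567981-121568230 (minus strand) for Ddx18. Capitals mark matches, on either strand, to the E-box CACGTG, the CCAAT box, the GC box GGGCGG and the ETS site CCGGAAGT.
Dhx16: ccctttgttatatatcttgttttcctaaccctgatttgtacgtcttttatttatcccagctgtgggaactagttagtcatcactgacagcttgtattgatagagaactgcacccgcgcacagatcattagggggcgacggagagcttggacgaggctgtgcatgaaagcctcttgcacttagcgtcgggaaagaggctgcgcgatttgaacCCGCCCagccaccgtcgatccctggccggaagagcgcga
Dhx35: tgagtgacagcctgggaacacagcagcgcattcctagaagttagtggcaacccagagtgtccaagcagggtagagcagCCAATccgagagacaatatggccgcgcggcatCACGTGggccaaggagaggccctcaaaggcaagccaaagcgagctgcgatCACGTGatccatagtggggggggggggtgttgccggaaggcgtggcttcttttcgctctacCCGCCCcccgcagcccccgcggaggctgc
Ddx59: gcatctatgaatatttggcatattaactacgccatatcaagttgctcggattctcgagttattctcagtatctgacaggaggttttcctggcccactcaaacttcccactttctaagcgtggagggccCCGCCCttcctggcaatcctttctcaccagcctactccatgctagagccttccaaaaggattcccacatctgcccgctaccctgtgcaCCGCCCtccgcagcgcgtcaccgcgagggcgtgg
Ddx17: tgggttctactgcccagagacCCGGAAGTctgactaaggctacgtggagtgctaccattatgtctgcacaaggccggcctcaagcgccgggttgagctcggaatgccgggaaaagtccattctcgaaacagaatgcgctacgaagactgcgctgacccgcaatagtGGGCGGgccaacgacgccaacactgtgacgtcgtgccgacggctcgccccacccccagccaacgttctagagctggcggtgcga
Ddx18: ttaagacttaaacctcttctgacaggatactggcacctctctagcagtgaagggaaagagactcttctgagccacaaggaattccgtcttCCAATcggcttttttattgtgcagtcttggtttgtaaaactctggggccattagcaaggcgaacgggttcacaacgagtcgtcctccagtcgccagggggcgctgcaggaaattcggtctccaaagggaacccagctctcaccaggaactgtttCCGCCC

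The window of Dhx35 held E-boxes 140 and 90 bases before the start, a CCAAT box at 172 and a GC box at 29. Dhx16 had a GC box at 39, Ddx59 had GC boxes at 122 and 34, Ddx17 had an ETS site at 229 and a GC box at 84, and Ddx18 had a CCAAT box at 160 and a GC box at 6. None of the 5 matched TATAAA, the CRE TGACGTCA, the NRF1 site or the p53 half-site. A GC box was thus found in all 5, and in 25 of the 42 members with a window (59.5%), against 32.7% of 32851 mouse promoter windows. An E-box was in 4 of 42 (9.52%, against 6.02%), a CCAAT box in 19 (45.2%, against 33.9%), a CRE in 4 (9.52%, against 1.55%), an ETS site in 5 (11.9%, against 2.88%), an NRF1 site in 2 (4.76%, against 0.782%), a p53 half-site in 4 (9.52%, against 7.13%) and TATAAA in 0 (against 12.4%). The windows of the 42 members had a median GC content of 60.6%, and all windows 52.4%, and the shares are not adjusted for it. A match is a description of these letters, and whether a factor binds there was not tested.

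Among the 9 members of the spliceosome list, 4 were called in Ddx10KD (2 higher, 2 lower), 3 in Ddx24KD (2 and 1) and 2 in each of Ddx27KD and Ddx54KD (both higher). These are shares of 44.4%, 33.3%, 22.2% and 22.2%, beside 30.96%, 28.1%, 33.4% and 24.3% of all genes tested, so the list lay above the background in 2 knockdowns and below it in 2. The higher ones were Dhx16 and Dhx35 throughout. Dhx16 is the helicase that activates the assembled spliceosome before the first cut, and it lies at chr17:35879819-35892670, plus strand (mm10). Its level was 205, 218 and 213 CPM in EGFPKD, 301, 337 and 309.8 in Ddx10KD, 300.2, 281 and 312 in Ddx24KD, 342, 338 and 295 in Ddx27KD, and 287, 311 and 290.0 in Ddx54KD. All 12 knockdown libraries exceeded the 3 EGFPKD libraries, the closest being 281 against 218 CPM. The log2 change was 0.58 ± 0.06 in Ddx10KD, 0.49 ± 0.06 in Ddx24KD, 0.62 ± 0.06 in Ddx27KD and 0.48 ± 0.06 in Ddx54KD (SE), with edgeR adjusted p of 6.19e-06, 3.51e-05, 2.37e-06 and 4.85e-05. These correspond to 149% ± 8.94, 140.4% ± 7.33, 153% ± 12.2 and 139.6% ± 6.06 of the EGFPKD level (SD, n = 3).

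Dhx35, found in spliceosomes at the catalytic stage, lies at chr2:158794807-158858214, plus strand. It stood at 44.6, 42.9 and 41.4 CPM in EGFPKD, 51.8, 58.0 and 58.0 in Ddx10KD, 58.0, 51.8 and 60.1 in Ddx24KD, 60.9, 61.7 and 59.6 in Ddx27KD, and 53.4, 55.2 and 56.0 in Ddx54KD. Again no knockdown library reached down to the control. The log2 change was 0.38 ± 0.06 in Ddx10KD, 0.40 ± 0.06 in Ddx24KD, 0.50 ± 0.06 in Ddx27KD and 0.35 ± 0.06 in Ddx54KD, with adjusted p of 0.000267, 0.000206, 1.74e-05 and 0.000720. Both genes kept an adjusted p under 0.05 in all 4 knockdowns in each of the 23 fits tried, those with 1 library left out included.

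Dhx8, which releases the finished message from the spliceosome, moved the other way and lies at chr11:101732919-101767358, plus strand. Its level was 222, 216 and 241 CPM in EGFPKD, 203, 189.8 and 204 in Ddx10KD, 210.1, 176 and 197 in Ddx24KD, 204, 200.3 and 206 in Ddx27KD, and 210.2, 199.8 and 198 in Ddx54KD. The 3 EGFPKD libraries were the highest of the 15, the lowest of them at 216 CPM. Dhx8 fell in Ddx10KD (-0.19 ± 0.06, adjusted p 0.0262) and Ddx24KD (-0.22 ± 0.06, 0.0120), with -0.16 ± 0.06 (0.0565) in Ddx27KD and -0.16 ± 0.06 (0.0633) in Ddx54KD, both called with the block (0.00697 and 0.00733). The Ddx10KD call was lost without EGFPKD replicate 3 (0.124) or Ddx10KD replicate 2 (0.105), and the Ddx24KD call without EGFPKD replicate 3 (0.0662) or in a fit of the 2 groups alone (0.0553).

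Ddx46, which helps U2 bind the branch point, was at 279, 275 and 279 CPM in EGFPKD and at 253, 255 and 251 CPM in Ddx10KD. These 2 groups did not overlap, and the log2 change was -0.14 ± 0.04 (adjusted p 0.0157; 0.0539 without Ddx10KD replicate 3). In the other knockdowns Ddx46 had log2 changes of 0.01, -0.03 and -0.07 and was not called. The remaining spliceosome members, Ddx23, Ddx41, Ddx42, Dhx15 and Dhx38, were called in none of the 4 without the block, and with it Ddx41 was lower in Ddx10KD (0.0315). Dhx15, which takes spent spliceosomes apart, had log2 changes between -0.01 and 0.04. Dhx38, which acts between the catalytic steps, had -0.14 in Ddx10KD (adjusted p 0.0863; 0.00780 with the block) and -0.11 in Ddx27KD (0.0216 with the block).

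**Figure D4:**
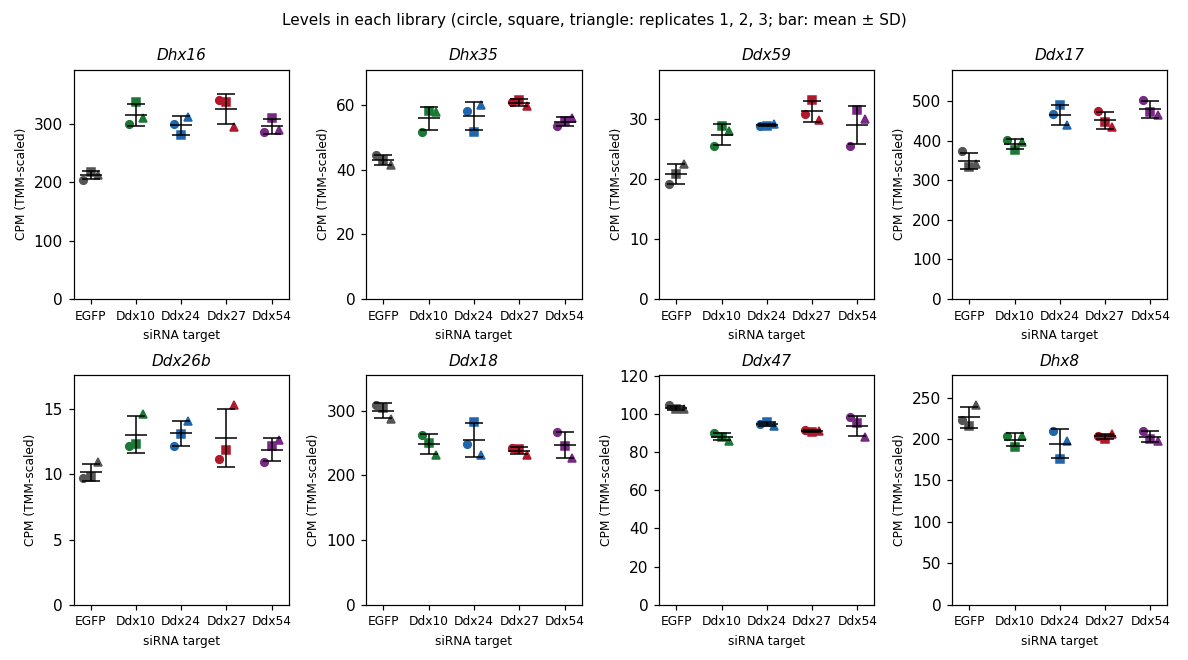
Level of 8 genes in each of the 15 libraries (CPM scaled by TMM, linear axis from 0). Points are libraries, with 1 marker shape per replicate number, and bars are the mean ± SD of 3. The 12 knockdown points of Dhx16, Dhx35, Ddx59, Ddx17 and Ddx26b lie above the EGFPKD points, and those of Ddx18, Ddx47 and Dhx8 lie below.

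Among the 4 coregulators and RNP assembly helicases, Ddx17 was higher in all 4 knockdowns and Ddx20 was lower in 2. Ddx17, a close relative of Ddx5 and likewise a transcription coregulator, lies at chr15:79527736-79546741, minus strand. Its level was 373, 335 and 342 CPM in EGFPKD, 403, 378 and 397 in Ddx10KD, 467, 490.4 and 439.8 in Ddx24KD, 474, 447 and 434 in Ddx27KD, and 504, 472 and 464 in Ddx54KD. The 3 Ddx10KD libraries lay between EGFPKD and the other knockdowns, the lowest of them at 378 CPM beside an EGFPKD library at 373. Log2 changes were 0.17 ± 0.06 in Ddx10KD, 0.41 ± 0.06 in Ddx24KD, 0.37 ± 0.06 in Ddx27KD and 0.46 ± 0.06 in Ddx54KD, with adjusted p of 0.0344, 6.12e-05, 0.000119 and 2.89e-05. The call in Ddx10KD was lost without EGFPKD replicate 2 (0.155), EGFPKD replicate 3 (0.109), Ddx10KD replicate 1 (0.109), Ddx10KD replicate 3 (0.0961) or Ddx24KD replicate 1 (0.0501). With the block it was 0.00240.

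Ddx5, its paralogue, was not called in any knockdown in the fit without the block, with log2 changes of 0.08 ± 0.05 in Ddx10KD, 0.10 ± 0.05 in Ddx24KD, 0.11 ± 0.05 in Ddx27KD and 0.12 ± 0.05 in Ddx54KD (adjusted p 0.240, 0.149, 0.0971 and 0.0753). It was at 1222, 1222 and 1257 CPM in EGFPKD and between 1226 and 1401 CPM in the 12 knockdown libraries, so the groups overlapped. In the mean of the 4 knockdowns its change was 0.10 ± 0.04 (adjusted p 0.0465), a call that was lost with RLE scaling (0.0607), with no count filter (0.0597), and without any 1 of the EGFPKD libraries (0.156, 0.172 and 0.0790). It was also lost without Ddx10KD replicate 2 or 3 (0.0661, 0.0553), Ddx24KD replicate 1 or 3 (0.0765, 0.0575), Ddx27KD replicate 2 or 3 (0.0787, 0.0621) or any Ddx54KD replicate (0.0586, 0.0664 and 0.0583). Other settings added calls: with the block Ddx5 was called in Ddx27KD (0.0334) and Ddx54KD (0.0205), with the filter at 10 CPM in the same 2 (0.0451 and 0.0397), and without Ddx24KD replicate 2 in Ddx24KD (0.0209), Ddx27KD (0.0487) and Ddx54KD (0.0371). Of its 50-base stretches 14.6% also occur in other annotated genes, so part of its count may be shared with them. On the TPM scale Ddx5 exceeded Ddx17 in EGFPKD, 707 ± 18.3 against 157 ± 14.2 TPM (SD, n = 3).

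Ddx20, the Gemin3 protein of the complex that builds spliceosomal RNPs, was at 103, 103 and 106 CPM in EGFPKD, 95.3, 97.3 and 92.1 in Ddx27KD and 97.8, 93.4 and 91.1 in Ddx54KD. Neither knockdown overlapped with the control. The log2 changes were -0.13 ± 0.05 (adjusted p 0.0346) and -0.14 ± 0.05 (0.0294). Both calls were lost without a count filter (0.0692 and 0.0588), in fits of the 2 groups alone (0.0607 and 0.0674) and without any 1 of the EGFPKD libraries. In Ddx27KD these last values were 0.0619, 0.0594 and 0.112, with 0.0689 and 0.116 without Ddx27KD replicate 1 or 3. In Ddx54KD they were 0.0566, 0.0518 and 0.0983, with 0.0751 and 0.122 without Ddx54KD replicate 2 or 3. With the block the adjusted p was 0.00965 and 0.00660. Dhx9 was not called against EGFPKD, with 0.16 ± 0.06 in Ddx54KD (adjusted p 0.0511, 0.00662 with the block).

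Of the 5 members of the large subunit list 1 was lower in each knockdown, always Ddx18, and of the 4 of the small subunit list 1 was lower in each, Ddx47 in 3 knockdowns and Ddx52 in Ddx24KD. These are 1 of 5 and 1 of 4, beside 14.5%, 13.1%, 16.1% and 11.2% of all genes tested that were lower in the 4 knockdowns, and nothing is read from these shares. Ddx18, which acts in the making of the large subunit, lies at chr1:121553835-121567989, minus strand. It stood at 308, 304 and 287 CPM in EGFPKD, 262, 250.03 and 232 in Ddx10KD, 248, 283 and 232 in Ddx24KD, 243, 240.2 and 232 in Ddx27KD, and 267, 246 and 226 in Ddx54KD. The highest knockdown library, Ddx24KD replicate 2, was close to the lowest EGFPKD library, and none overlapped. Log2 changes were -0.27 ± 0.07 in Ddx10KD, -0.24 ± 0.07 in Ddx24KD, -0.33 ± 0.07 in Ddx27KD and -0.28 ± 0.07 in Ddx54KD, with adjusted p of 0.00813, 0.0196, 0.00197 and 0.00862. The Ddx24KD call was lost without EGFPKD replicate 1 (0.0655), EGFPKD replicate 2 (0.0538), Ddx24KD replicate 1 (0.0628) or Ddx24KD replicate 3 (0.104), and the Ddx54KD call without Ddx54KD replicate 3 (0.0545). Its count is uncertain, since 55.9% of the 50-base stretches of its transcripts also occur in annotated copies (Gm16433, Gm8173, Gm5390 and AC122481.1) that were not analysed here.

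Ddx47, which is needed for the small subunit RNA, lies at chr6:135011612-135023776, plus strand. It was at 104, 103 and 103 CPM in EGFPKD, 89.8, 87.9 and 86.1 in Ddx10KD, 94.8, 95.8 and 93.8 in Ddx24KD, 91.7, 90.7 and 91.2 in Ddx27KD, and 98.3, 95.0 and 88.0 in Ddx54KD. The EGFPKD libraries lay close together and above all 12 knockdown libraries. It fell in Ddx10KD (-0.23 ± 0.05, adjusted p 0.00116), in Ddx27KD (-0.18 ± 0.05, 0.00609) and in Ddx54KD (-0.14 ± 0.05, 0.0346), with -0.12 ± 0.05 (0.0528; 0.0129 with the block) in Ddx24KD. The Ddx54KD call was lost without EGFPKD replicate 1 (0.101), EGFPKD replicate 2 (0.0645), EGFPKD replicate 3 (0.0727), Ddx54KD replicate 2 (0.0587) or Ddx54KD replicate 3 (0.176), with no count filter (0.0687) and in a fit of the 2 groups alone (0.0949).

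Ddx52, another helicase of the small subunit, was at 116, 109 and 118 CPM in EGFPKD and at 104, 88.8 and 103 CPM in Ddx24KD. Those groups did not overlap, and Ddx24KD replicate 2 was the lowest. The log2 change was -0.21 ± 0.06 (adjusted p 0.0140), lost without EGFPKD replicate 3 (0.0588) or Ddx24KD replicate 2 (0.0564) or in a fit of the 2 groups alone (0.0534). Dhx37, which frees the U3 RNA from the early particle, was called in no single knockdown without the block (-0.15, -0.16, -0.14 and -0.11) and in all 4 with it (adjusted p 0.00539, 0.00400, 0.00646 and 0.0306). Ddx49, the fourth of the list, had log2 changes between -0.02 and 0.07. Of its exon bases 29.9% overlap with Homer3 on the opposite strand, and counts that ignore strand would hold reads of both.

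The other large subunit helicases, Ddx31, Ddx51, Ddx55 and Ddx56, were not called in any knockdown without the block. Ddx51 had log2 changes of -0.12, -0.15, -0.11 and -0.14, and Ddx55 had 0.15, 0.15, 0.20 and 0.06. With the block Ddx51 was called lower in Ddx24KD (0.0219) and Ddx54KD (0.0334), and Ddx55 higher in Ddx27KD (0.0397). The nucleolar Ddx21, which links ribosomal gene transcription to rRNA processing, its paralogue Ddx50 and Dhx33 were also called in none without it. Ddx21 stood at 704 ± 22.7 CPM in EGFPKD, 644 ± 29.9 in Ddx10KD, 668 ± 23.7 in Ddx24KD, 657 ± 25.1 in Ddx27KD and 649 ± 49.7 in Ddx54KD (SD, n = 3). Its log2 change of -0.13 ± 0.06 in Ddx10KD had an adjusted p of 0.0967, and of 0.00251 with the block, which also called it lower in Ddx27KD (0.0140) and Ddx54KD (0.00546), Ddx50 lower in Ddx27KD (0.0337) and Dhx33 lower in Ddx54KD (0.0488). Ddx50 had 0.08 ± 0.06 in Ddx10KD and -0.12 ± 0.06 in Ddx27KD, and Dhx33 lay between -0.12 and -0.07. In EGFPKD, Ddx21 was at 298 ± 12.3 TPM and Ddx50 at 40.7 ± 1.26 TPM.

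In the group of antiviral, DNA-directed or little characterised members, Ddx59 and Ddx26b were higher and Dhx32 was lower. Ddx59, a gene tied to ciliary signalling in development, lies at chr1:136415271-136440158, plus strand. It was at 19.1, 20.9 and 22.5 CPM in EGFPKD, 25.4, 28.7 and 28.0 in Ddx10KD, 28.9, 28.8 and 29.1 in Ddx24KD, 30.7, 33.2 and 29.9 in Ddx27KD, and 25.5, 31.5 and 30.0 in Ddx54KD. All 12 knockdown libraries exceeded the EGFPKD libraries, whose highest was 22.5 CPM. The log2 changes were 0.39 ± 0.08 in Ddx10KD, 0.47 ± 0.08 in Ddx24KD, 0.59 ± 0.08 in Ddx27KD and 0.48 ± 0.08 in Ddx54KD, with adjusted p of 0.00218, 0.000588, 6.40e-05 and 0.000689, and all 4 stayed under 0.05 in each of the 23 fits tried. Its exons overlap with a transcript on the opposite strand (9230116N13Rik) over 5.18% of their bases.

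Ddx26b is now named Ints6l after a subunit of the Integrator complex, and it was included by its older symbol alone. Whether its protein is an RNA helicase was not tested, and the gene is kept in all counts. It lies at chrX:56454857-56507843, plus strand. It was at 9.69, 9.82 and 10.9 CPM in EGFPKD, 12.2, 12.3 and 14.7 in Ddx10KD, 12.2, 13.1 and 14.1 in Ddx24KD, 11.2, 11.9 and 15.3 in Ddx27KD, and 11.0, 12.1 and 12.6 in Ddx54KD. In every group replicate 3 was the highest, and Ddx27KD replicate 1 and Ddx54KD replicate 1 came close to the highest EGFPKD library. It rose in Ddx10KD (0.36 ± 0.12, adjusted p 0.0272), Ddx24KD (0.37 ± 0.12, 0.0260) and Ddx27KD (0.33 ± 0.12, 0.0390), with 0.23 ± 0.12 (0.172; 0.0240 with the block) in Ddx54KD. These calls were lost, in order, without EGFPKD replicate 1 (0.0888), EGFPKD replicate 2 (0.0844) or Ddx10KD replicate 3 (0.140), without EGFPKD replicate 1 (0.0853), EGFPKD replicate 2 (0.0806) or Ddx24KD replicate 3 (0.103), and without EGFPKD replicate 1 (0.113), EGFPKD replicate 2 (0.108) or Ddx27KD replicate 3 (0.228) or in a fit of the 2 groups alone (0.0560). Without Ddx27KD replicate 3 the log2 change in Ddx27KD was 0.18 in place of 0.33. With the block the 3 adjusted p were 0.000785, 0.000699 and 0.00174.

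Dhx32 stood at 54.7, 59.9 and 57.2 CPM in EGFPKD, 48.0, 55.1 and 47.4 in Ddx24KD and 48.0, 47.2 and 51.5 in Ddx27KD. The Ddx27KD libraries were all below the control, while Ddx24KD replicate 2 overlapped with it. The log2 changes were -0.19 ± 0.06 (adjusted p 0.0364) and -0.23 ± 0.06 (0.0121). The first was lost without EGFPKD replicate 2 (0.117), EGFPKD replicate 3 (0.0807), Ddx24KD replicate 1 (0.116) or Ddx24KD replicate 3 (0.149), with no count filter (0.0513) and in a fit of the 2 groups alone (0.0906). Its exons overlap with Bccip on the opposite strand over 4.89% of their bases. Ddx60 had log2 changes of 0.17 ± 0.31, 0.47 ± 0.30, 0.60 ± 0.30 and 0.53 ± 0.30 (adjusted p 0.731, 0.272, 0.137 and 0.217) at levels of 0.626 to 1.70 CPM. The DNA helicase gene Ddx11, Dhx40 and Dhx57 were not called without the block, and with it Dhx57 was higher in Ddx27KD (0.0118).

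Of the 5 export members 1 was called, and in 1 knockdown, Ddx24KD, where 28.1% of all genes tested were called. Ddx25, best known from the testis, was at 4.97, 6.54 and 7.32 CPM in EGFPKD and 4.35, 5.00 and 4.45 CPM in Ddx24KD. The lowest EGFPKD library overlapped with the highest of Ddx24KD. The log2 change was -0.45 ± 0.15 (adjusted p 0.0371), and it was lost without EGFPKD replicate 2 (0.0951), EGFPKD replicate 3 (0.177), Ddx24KD replicate 1 (0.104) or Ddx24KD replicate 3 (0.104), with limma-voom (0.0516) and in a fit of the 2 groups alone (0.0730). The paralogues Ddx39b and Ddx39 (now Ddx39a), which load export factors on messages, were not called. Ddx39b stood at 435, 442 and 405 CPM in EGFPKD and 386, 397 and 309.8 CPM in Ddx54KD, where its log2 change was -0.23 ± 0.09 (adjusted p 0.0878). Within each of these groups replicate 3 was the lowest, and with the block all 4 knockdowns were called for Ddx39b (adjusted p 0.00226, 0.00263, 0.000211 and 0.000113).

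Ddx39 had log2 changes of -0.19 ± 0.08 in Ddx27KD (adjusted p 0.0717, 0.000652 with the block) and -0.19 ± 0.08 in Ddx54KD (0.0956, 0.00118). Its exons overlap with Adgre5 on the opposite strand over 17.4% of their bases. In EGFPKD the level was 271 ± 11.9 TPM for Ddx39 and 506 ± 20.4 TPM for Ddx39b. Ddx19a and Ddx19b, which release messages at the outer face of the nuclear pore, share 50-base stretches with each other, 28.1% of those of Ddx19a and 12.4% of those of Ddx19b, so the split of counts between them is uncertain. Neither was called. Ddx19a had -0.16 ± 0.06 in Ddx10KD (adjusted p 0.0520; 0.00797 with the block), and Ddx19b lay between -0.07 and 0.03.

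Among the 6 members that act in translation, decay and tRNA splicing, Ddx3x rose in Ddx10KD, Ddx6 rose in Ddx27KD and Dhx29 fell in Ddx54KD. Ddx3x was at 999, 947 and 993 CPM in EGFPKD and at 1081, 1116 and 1069 CPM in Ddx10KD. The groups did not overlap, and the log2 change was 0.15 ± 0.04 (adjusted p 0.0134), lost without EGFPKD replicate 2 (0.0788) or Ddx10KD replicate 2 (0.0566). Ddx6, a core protein of processing bodies, was at 366, 338 and 361 CPM in EGFPKD and 388, 394 and 391 CPM in Ddx27KD. The highest EGFPKD library lay below the lowest of Ddx27KD, with a log2 change of 0.14 ± 0.04 (adjusted p 0.0264), lost without EGFPKD replicate 2 (0.150), Ddx27KD replicate 1 (0.0613), Ddx27KD replicate 2 (0.0864) or Ddx27KD replicate 3 (0.0570). Dhx29, which helps ribosomes scan structured leaders, was at 81.4, 79.0 and 85.9 CPM in EGFPKD and 76.3, 71.7 and 71.3 CPM in Ddx54KD. These did not overlap either, and the log2 change was -0.17 ± 0.06 (adjusted p 0.0406). The omission of EGFPKD replicate 1 (0.0785), EGFPKD replicate 3 (0.156), Ddx54KD replicate 2 (0.109) or Ddx54KD replicate 3 (0.134) ended the call, as did a fit with no count filter (0.0615) and a fit of the 2 groups alone (0.0533).

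Ddx1, a subunit of the tRNA ligase complex, Dhx34 and the G-quadruplex helicase Dhx36 were not called, nor were the 2 mitochondrial and the 2 germ line members. Dhx30, of the mitochondrial RNA granule, stood at 137, 143 and 142 CPM in EGFPKD and between 135 and 144 CPM in the knockdowns, within the control spread or close to it. Ddx28, which helps build the mitochondrial ribosome, had -0.18 ± 0.08 in Ddx24KD and -0.19 ± 0.08 in Ddx27KD (adjusted p 0.115 and 0.0916). Ddx4 ranged from 7.54 to 11.3 CPM over all 15 libraries with overlapping groups. Ddx43, a testis gene, had 0.27 ± 0.10 in Ddx10KD (adjusted p 0.0640; 0.0275 with the block), and 15.9% of its exon bases overlap with an antisense gene.

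Few of the 47 genes were called between knockdowns. In the test of equal levels in the 4 knockdowns, which does not use EGFPKD, edgeR called 0 of 47 (background 0.495%), with 6 at an unadjusted p under 0.05, and DESeq2 called 2. The background applies to the adjusted edgeR calls only. No share of all genes was computed for the unadjusted or DESeq2 counts, so nothing is read from them. With the replicate block edgeR called 7 of 47 (background 11.2%): Ddx17, Dhx9, Ddx3x, Ddx50, Ddx6, Ddx46 and Ddx39. The smallest adjusted p without the block was 0.0658, for Ddx17. The 7 genes are listed here for their values with the block. Of them only Ddx46 is outside the naming rule and was chosen after its values were seen.

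Of the 6 pairs of knockdowns, 1 gave a call: Ddx17 was lower in Ddx10KD than in Ddx54KD, with a log2 difference of -0.29 ± 0.06 (SE, adjusted p 0.0185; background 1.43%). The call was lost without Ddx10KD replicate 2 (0.0889), Ddx10KD replicate 3 (0.0669), Ddx54KD replicate 1 (0.0704) or Ddx54KD replicate 2 (0.0590), and the block gave 0.000186. Leaving out Ddx24KD replicate 2 or 3 gave 2 calls in this pair. Against Ddx24KD and Ddx27KD the log2 difference of Ddx17 was -0.25 ± 0.06 and -0.20 ± 0.06 (adjusted p 0.0783 and 0.169, 0.00131 and 0.00716 with the block). The Ddx17 levels were 403, 378 and 397 CPM in Ddx10KD and 504, 472 and 464 CPM in Ddx54KD, with no overlap.

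Ddx10KD against Ddx24KD had 0 of 47 called by edgeR (background 0.412%; 6 at an unadjusted p under 0.05, 2 with DESeq2, and 4 with the block, background 5.41%). Ddx10KD against Ddx27KD had 0 (0.223%; 7 unadjusted, 1 with DESeq2, and 5 with the block, background 5.34%), and Ddx10KD against Ddx54KD had 5 with the block (background 10.6%). The 3 pairs without Ddx10KD had 0 called by edgeR with or without the block. Their backgrounds were 0.0209% for Ddx24KD against Ddx27KD, 0.0558% for Ddx24KD against Ddx54KD and 0.0140% for Ddx27KD against Ddx54KD, or 0.0558%, 1.74% and 2.62% with the block. The numbers at an unadjusted p under 0.05 were 0, 1 and 3. Unadjusted and DESeq2 counts in these pairs have no share of all genes beside them.

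With the block Dhx9 was lower in Ddx10KD than in each other knockdown. It stood at 808, 827 and 745 CPM in Ddx10KD, 874, 962 and 843 in Ddx24KD, 854, 911 and 882 in Ddx27KD and 974, 939.8 and 890.1 in Ddx54KD, beside 881, 804 and 819.8 in EGFPKD. Its blocked adjusted p was 0.0287 against Ddx24KD, 0.0465 against Ddx27KD and 0.00200 against Ddx54KD. Ddx3x was higher in Ddx10KD than in Ddx27KD (0.0191) and Ddx54KD (0.0103), and so was Ddx50 (0.0166 and 0.0283). Ddx6 was lower in Ddx10KD than in Ddx24KD (0.0353) and Ddx27KD (0.0194), and Ddx46 was lower than in Ddx24KD (0.0161). The blocked fit assumes that same-numbered libraries share a batch, which rests on their deviations and not on the labels.

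**Figure D5:**
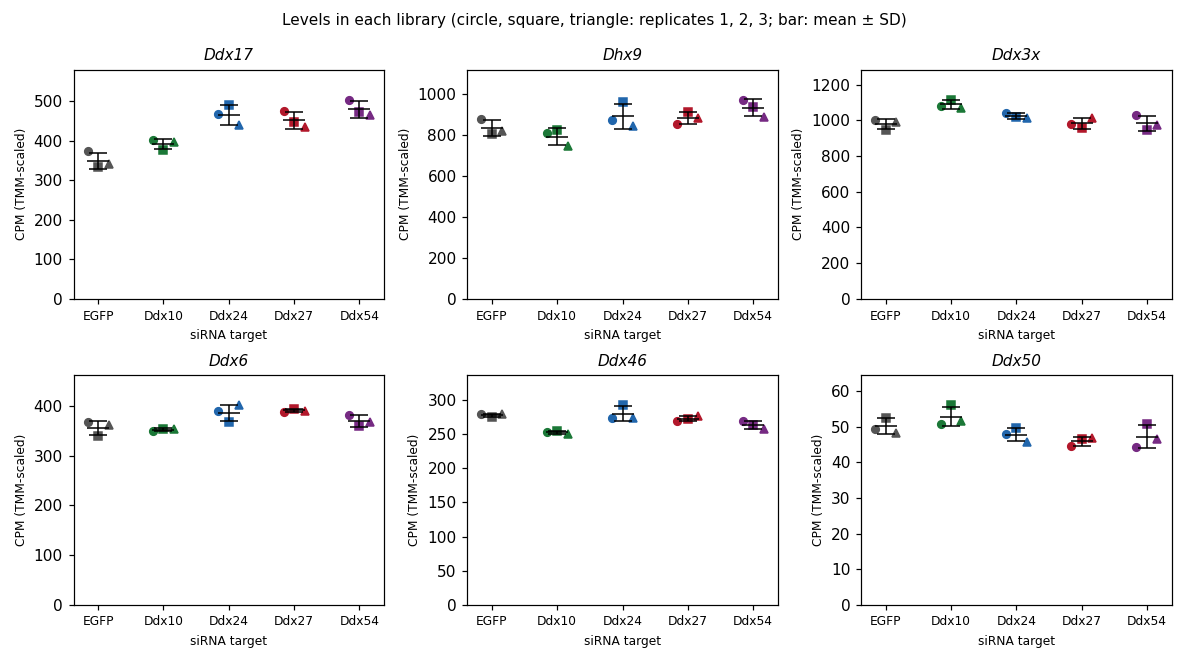
Level of 6 genes in each library (CPM scaled by TMM, linear axis from 0), with 1 marker shape per replicate number and bars for the mean ± SD of 3. These genes have an adjusted p under 0.05 among the 4 knockdowns with the replicate block. Ddx39, which also passed, is not drawn. Ddx17 in Ddx10KD (403, 378 and 397 CPM) lies below the other knockdowns.

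Some members share a start region with a neighbour. Of the 47, 10 have a start 29 to 582 bases from that of a gene on the opposite strand, and this share was not computed over all genes. Among them are Dhx29 with Mtrex (the exosome helicase listed as Skiv2l2) 56 bases apart, and Ddx51 with Noc4l 34 bases apart. Some of these pairs overlap: Dhx30 shares 123 exon bases with Smarcc1, and Dhx57 shares 135 with Morn2. Dhx29 fell in Ddx54KD as given above, while Skiv2l2 had a log2 change of -0.10 ± 0.06 there (adjusted p 0.266; 0.0467 with the block).

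The deposited gene lengths bear on the mix of transcripts in a few members only. RSEM gives each gene a length averaged over its transcripts by abundance. By limma, 0 of the 12 members whose length varied were called among the 5 groups, against 0.359% of the 3900 genes whose length varied. The other 35 members have a constant length and could not be tested. Of those tested, Ddx17 has 4 and had log2 length changes of 0.00, 0.02, 0.02 and 0.03 (adjusted p 0.944).

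In the authors' deposited table of Ddx10KD, 12 of the 47 genes had a posterior probability of a difference of at least 0.95 (5 higher, 7 lower; 25.5%, against 17.1% of all genes in that table). In the authors' deposited table of Ddx24KD it was 5 (5 higher, 0 lower; 10.6%, against 12.4%), in that of Ddx27KD 11 (6 and 5; 23.4%, against 18.3%), and in that of Ddx54KD 9 (5 and 4; 19.1%, against 13.1%). The log2 ratios of the authors' deposited table followed the fitted changes of the 47 genes with r of 1.00 in 3 knockdowns and 0.955 in Ddx24KD (across genes, which are not independent replicates). How the Ddx24KD table was made differently is not given in the sources used here. In the authors' deposited table of Ddx24KD, the log2 ratio was 0.52 for Dhx16, 0.36 for Dhx35, 0.44 for Ddx59, 0.35 for Ddx17 and -0.27 for Ddx18. The fitted values from the 15 libraries were 0.49, 0.40, 0.47, 0.41 and -0.24.

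RNA helicases outside the name rule and partner proteins of the 47 were counted for comparison. The helicase list is not made of other families only. Eif4a3 and Ddx3y, among others in it, are DEAD-box genes, and Ythdc2 is a DEAH-box gene. Of 23 other RNA helicases, 7 were called in Ddx10KD (3 higher, 4 lower), 9 in Ddx24KD (3 and 6), 7 in Ddx27KD (3 and 4) and 4 in Ddx54KD (1 and 3). These are 30.4%, 39.1%, 30.4% and 17.4% of the list, beside 30.96%, 28.1%, 33.4% and 24.3% of all genes tested, above the background in Ddx24KD only. The largest change of those named was that of Mov10, a helicase that acts with Argonaute proteins and against retroelements. It was at 311, 296 and 311 CPM in EGFPKD, 155, 128 and 123 in Ddx10KD, 163, 219 and 143 in Ddx24KD, 152, 139 and 151 in Ddx27KD and 191, 178 and 155 in Ddx54KD. Every knockdown library lay below the EGFPKD libraries, and the log2 changes were -1.17 ± 0.12 in Ddx10KD, -0.81 ± 0.12 in Ddx24KD, -1.05 ± 0.12 in Ddx27KD and -0.81 ± 0.12 in Ddx54KD (adjusted p 3.99e-06, 0.000143, 8.20e-06 and 0.000169), beyond those of any of the 47 genes. Eif4a3, of the exon junction complex, fell in all 4 (-0.23, -0.27, -0.27 and -0.25), and the spliceosomal Aqr rose in all 4 (0.29, 0.24, 0.32 and 0.19). In the mean of the 4 knockdowns Ythdc2 had 0.21 ± 0.05 (adjusted p 0.00589) and Ighmbp2 -0.26 ± 0.06 (0.00280).

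Of 30 partner proteins, 9 were called in Ddx10KD (1 higher, 8 lower), 7 in Ddx24KD (1 and 6), 9 in Ddx27KD (0 and 9) and 8 in Ddx54KD (0 and 8). These are 30.0%, 23.3%, 30.0% and 26.7% of the list, beside the same shares of all genes, 30.96%, 28.1%, 33.4% and 24.3%. Over all genes 14.5%, 13.1%, 16.1% and 11.2% were lower in the 4 knockdowns. Their median log2 change lay between -0.05 and -0.07. Pinx1, a G-patch protein that stimulates Dhx15, fell in all 4 (-0.34 ± 0.08 in Ddx10KD, -0.40 ± 0.08 in Ddx24KD, -0.45 ± 0.08 in Ddx27KD and -0.40 ± 0.08 in Ddx54KD). Gemin4, the direct partner of Ddx20, fell in all 4 (-0.32 ± 0.07 in Ddx10KD, -0.32 ± 0.07 in Ddx24KD, -0.28 ± 0.07 in Ddx27KD and -0.25 ± 0.07 in Ddx54KD), as did the ribosome assembly factor Pdcd11 (-0.19, -0.15, -0.18 and -0.19). Nol8 had 0.12 ± 0.04 in the mean of the 4 knockdowns (adjusted p 0.0235). Beside Gemin4, Ddx20 itself had log2 changes of -0.08, -0.08, -0.13 and -0.14, and beside Pinx1, Dhx15 had 0.02, 0.04, 0.01 and -0.01.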

How the data were processed

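Poly(A) RNA of 15 libraries was sequenced, 3 for each of 5 groups, and the groups were taken from the sample labels. Per the submitters' processing notes the authors used RSEM and the mouse build mm10; for the RSEM version, the aligner and the gene models the entry is: not given in the sources used here. The deposited files give, per gene, an expected count (estimated reads, not normalized), TPM, FPKM (not used for any value) and lengths in bases. The authors' deposited comparison tables give the fold ratio of 2 groups and a posterior probability of a difference, a score from 0 to 1.

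The members and gene lists were chosen with earlier results of these data known. Expected counts were rounded to whole numbers and filtered with filterByExpr, which kept 14335 of 23845 genes and 99.97% of counts. Counts were scaled by TMM and tested with edgeR 4.0.16 (R 4.3.3) quasi-likelihood fits over all 15 libraries, with Benjamini-Hochberg adjustment over all genes tested and a threshold of 0.05. Levels are CPM, counts scaled to the library total with TMM factors. Transcript lengths were tested on the log2 scale with limma 3.58.1, leaving out genes of constant length. DESeq2 1.42.0, limma-voom, other scalings, other filters, a replicate block and the omission of each library were tried as alternatives, and the scripts were tested on simulated data. The genes named are those without overlap between control and knockdown libraries, the smallest p and largest changes in each role list and knockdown, paralogue pairs and the extremes of level. Genes named outside that rule were chosen after their values were seen.

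Replicate numbers come from the labels, which do not say what they share. All 30 pairs of same-numbered libraries of different groups had correlated deviations from their group means (r 0.106 to 0.335), against -0.249 to 0.053 for 60 pairs with different numbers. The main fit ignores this pairing, and the fit with the replicate block takes the numbers to pair the libraries. Depth was 26836946 to 27708782 expected counts a library. Gene positions are from GENCODE on mm10, and promoter windows are from RefSeq for the 42 members matched by symbol; Ddx6, Ddx11, Ddx23, Ddx39 and Dhx38 had no window. One gene that the naming rule selects among the other RNA helicases is not reported here.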

Additional observations from a re-analysis of the deposited data

How the results depend on the processing

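With the replicate block 18 of the 47 genes were called in Ddx10KD, 23 in Ddx27KD, 18 in Ddx54KD, 24 in the mean of the 4 knockdowns, 7 among the 4 knockdowns, and 4, 5 and 5 in Ddx10KD against Ddx24KD, Ddx27KD and Ddx54KD. In Ddx24KD it gave 15, within 1.5 times of 10. At an adjusted p under 0.01 the counts were 5, 4, 6 and 5 in the 4 knockdowns, 7 in their mean and 0 in Ddx10KD against Ddx54KD. DESeq2 called 2 among the 4 knockdowns and 2, 1 and 3 in Ddx10KD against Ddx24KD, Ddx27KD and Ddx54KD, and limma-voom, no count filter and a filter at 10 CPM each gave 2 in the last pair. With no count filter 5 were called in Ddx54KD, and with only the groups compared 6 in Ddx24KD and 5 in Ddx54KD. For these changes the cause was not tested. Shares of all genes tested were computed only at an adjusted p under 0.05, with and without the block. Counts from other settings, or with a library left out, thus have no background beside them and are not compared with all genes.

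Leaving out 1 library gave 7 to 12 calls in Ddx10KD, 6 to 11 in Ddx24KD, 7 to 13 in Ddx27KD, 5 to 11 in Ddx54KD and 7 to 16 in the mean. It gave 0 to 1 among the 4 knockdowns and in Ddx10KD against Ddx24KD (1 without Ddx24KD replicate 3), 0 to 2 in Ddx10KD against Ddx54KD, and 0 in the other pairs and for transcript length. Signs were checked in 176 results of single genes, those of the genes picked by the naming rule and of the 4 targets. No called value changed sign. Uncalled values did so 36 times over all refits, in 16 of these results. With RLE scaling the log2 change was -0.00346 for Ddx27 in Ddx10KD and -0.00162 for Ddx3x in Ddx54KD. With upper-quartile scaling it was 0.00685 for Dhx30 in Ddx10KD and 0.00218 for Dhx30 in Ddx54KD. DESeq2 gave -0.00346 for Ddx27 in Ddx10KD and -0.00163 for Ddx3x in Ddx54KD. The filter at 10 CPM gave 0.00926 for Dhx30 in Ddx10KD, 0.00690 for Dhx30 in Ddx27KD and 0.00804 for Dhx30 in Ddx54KD. The groups compared alone gave 0.00316 for Dhx30 in Ddx10KD. Over the fits without 1 library the log2 change ran from -0.0966 to 0.0284 for Ddx28 in Ddx10KD, -0.0524 to 0.00799 for Ddx6 in Ddx10KD, -0.0205 to 0.0110 for Dhx30 in Ddx10KD and -0.0270 to 0.0538 for Ddx27 in Ddx10KD. It ran from -0.0232 to 0.0213 for Ddx3x in Ddx27KD, -0.0294 to 0.0272 for Ddx3x in Ddx54KD, -0.17 to 0.37 for Ddx60 in Ddx10KD and -0.0347 to 0.0657 for Ddx19b in Ddx27KD. It ran from -0.00855 to 0.12 for Ddx43 in Ddx54KD, -0.0658 to 0.20 for Ddx4 in Ddx10KD, -0.11 to 0.0514 for Ddx4 in Ddx24KD and -0.16 to 0.00569 for Dhx33 in Ddx24KD. It ran from -0.0943 to 0.00631 for Ddx19a in Ddx24KD, -0.0400 to 0.24 for Ddx4 in Ddx27KD, -0.0289 to 0.00448 for Dhx30 in Ddx27KD and -0.0283 to 0.0148 for Dhx30 in Ddx54KD.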
